A study of Mus musculus with 5 samples.

Results

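The 10 genes Csf1r, Csf2ra, Csf2rb, Csf3r, Ifngr1, Il10ra, Il6ra, Tgfbr1, Tgfbr2 and Tnfrsf1b encode receptors, or receptor chains, through which myeloid cells sense growth factors and cytokines. They were taken by symbol from the 52542 gene rows of the UMI tables, of which 17661 had at least 1 UMI (a unique molecular identifier, which marks 1 captured mRNA molecule) in a well that held a cell. The cells were sorted as CD45highCD11bhigh, a gate for myeloid cells, from brains of DM-hTAU mice, which carry human tau with the K257T and P301S changes under the natural tau promoter. All 5 libraries (AB5863, AB5864, AB5865, AB5867 and AB5876) carry the same labels: DM-hTAU strain, brain, 9 months of age, and treatment with an antibody against PD-L1, the ligand of the checkpoint receptor PD-1. The labels list no library from isotype-treated mice, so the antibody's effect on these receptors was not analysed here, and wells are not tied to single mice. The paper's text describes cells sorted from isotype-treated as well as antibody-treated mice, while its figure legend names the antibody-treated mice alone. The treatment is given here as the labels state it. The mice were heterozygous on a mixed BALBc and C57BL/6 background. The extraction text in the labels describes thymus and small intestine, while the tissue label says brain.

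MARS-seq, which reads the 3′ ends of mRNAs from single cells sorted into wells, gave 134127, 146044, 438531, 128116 and 549767 UMIs in the libraries in the order above. Of 1900 wells with a cell, 825 held at least 500 UMIs and were kept, 68, 87, 285, 71 and 314 by library, with a median of 1015 UMIs. Most of the evidence below therefore came from AB5865 and AB5876. The 20 empty wells held 320 UMIs in all, of which 1 was from Csf1r. Cells were placed in classes by summed marker genes, none of which is a receptor described here: 319 microglia-like, 107 border macrophage-like, 154 other MHC class II-high, 50 Cd209a dendritic-like, 61 monocyte-like and 30 neutrophil-like cells, with 104 cells in no class. The classes were gated on these sums, and the leading genes named below are themselves gate markers. That the lists stood apart by class therefore followed from the gates and is no separate evidence for the classes. The microglia list summed to 230.1 per 10000 UMIs in microglia-like cells and 20.5 to 45.5 in the other gated classes, and Sparc, P2ry12 and Olfml3 led that class. The border list summed to 87.1 against at most 7.69 in the other gated classes and 30.6 in the cells of no class, led by Mrc1, Cbr2 and Lyve1, and the neutrophil list to 3435, led by Camp, Ngp and S100a8. The monocyte list summed to 72.2 in monocyte-like cells, led by Ly6c2, Plac8 and Ccr2, and to 68.8 in neutrophil-like cells. Lists for astrocytes, oligodendrocytes, endothelial cells and erythrocytes reached at most 1.56 per 10000 in any class, and the T, NK and B cell list 1.61 to 6.25. The other MHC class II-high cells carried no defining marker list beyond MHC class II itself (476.3 per 10000, against 432.3 in Cd209a dendritic-like and 278.5 in border macrophage-like cells), so they are named only by that feature.

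Microglia and other tissue macrophages depend on the receptor tyrosine kinase CSF1R for survival, and TGF-beta signalling through a complex of TGFBR2, which binds the ligand, and TGFBR1, which then passes the signal to SMAD proteins, is known to maintain the microglial state. GM-CSF acts through CSF2RA with the shared beta chain encoded by Csf2rb, and G-CSF through CSF3R, the main growth factor receptor of neutrophils. IFNGR1, IL10RA and IL6RA bind interferon-gamma, IL-10 and IL-6 and each signals with a partner chain, while TNFRSF1B (TNFR2) is the TNF receptor found mostly on immune cells.

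Promoter sequence is shown for the pair of TGF-beta receptor genes, whose order of classes below differed only in the place of border macrophage-like cells. It is also shown for Tnfrsf1b and Il6ra, whose windows can be compared for the same motif. The windows are the 250 bases before the start given in RefSeq (GRCm38.p6), 5′ to 3′ on the gene's strand: Tgfbr1 at chr4:47352972-47353221 (+), Tgfbr2 at chr9:116175364-116175613 (-), Tnfrsf1b at chr4:145246871-145247120 (-) and Il6ra at chr3:89913197-89913446 (-). Capitals mark GAGGAA, or its reverse complement TTCCTC, the core of the sites that PU.1, the master transcription factor of myeloid cells, is known to bind.
Tgfbr1: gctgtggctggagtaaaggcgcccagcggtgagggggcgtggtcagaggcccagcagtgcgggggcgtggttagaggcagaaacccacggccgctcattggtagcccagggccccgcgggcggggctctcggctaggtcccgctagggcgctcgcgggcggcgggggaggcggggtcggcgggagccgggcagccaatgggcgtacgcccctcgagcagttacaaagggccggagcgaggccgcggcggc
Tgfbr2: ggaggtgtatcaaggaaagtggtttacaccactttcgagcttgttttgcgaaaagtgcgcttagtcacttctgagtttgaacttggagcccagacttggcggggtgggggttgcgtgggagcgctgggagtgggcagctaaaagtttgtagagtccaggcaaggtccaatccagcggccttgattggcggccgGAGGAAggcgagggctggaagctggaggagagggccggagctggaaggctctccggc
Tnfrsf1b: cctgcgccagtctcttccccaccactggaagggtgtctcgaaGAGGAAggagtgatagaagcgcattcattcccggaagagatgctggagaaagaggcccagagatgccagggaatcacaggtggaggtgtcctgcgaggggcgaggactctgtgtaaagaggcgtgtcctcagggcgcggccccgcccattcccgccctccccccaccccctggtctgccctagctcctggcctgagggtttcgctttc
Il6ra: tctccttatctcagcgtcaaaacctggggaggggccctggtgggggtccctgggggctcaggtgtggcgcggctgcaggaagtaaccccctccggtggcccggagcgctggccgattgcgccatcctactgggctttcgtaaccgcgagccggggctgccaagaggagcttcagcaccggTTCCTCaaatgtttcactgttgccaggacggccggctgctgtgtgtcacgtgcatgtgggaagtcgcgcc
The letters stood 57 bases before the start of Tgfbr2 (-57), at -208 in Tnfrsf1b and, on the other strand, at -70 in Il6ra. The printed Tgfbr1 window held no match. RefSeq listed 2 promoters for this gene, and only the printed window is described here. RefSeq listed a promoter for 7 of the 10 genes and 5 of them held the motif, as did 23.3% of all 32851 promoter windows of that length. A match is a description of letters and not of a bound site.

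Csf1r was read from the most molecules of the 10 genes and its level was lower in each class from microglia-like cells down to neutrophils. Its pooled level per 10000 UMIs was 43.4 in microglia-like, 33.7 in border macrophage-like, 16.6 in other MHC class II-high, 12.3 in monocyte-like, 7.78 in Cd209a dendritic-like and 2.87 in neutrophil-like cells, from 1770, 390, 444, 102, 82 and 7 UMIs. The exact 95% Poisson intervals of neighbouring classes in that order did not overlap for Csf1r; they cover counting error only. In microglia-like cells the level was 30.2, 45.7, 46.8, 55.2 and 40.6 over the libraries in the order above (mean 43.7 ± 9.21, SD, n = 5 libraries). Border macrophage-like cells, of which only AB5865 and AB5876 held at least 5, gave 34.2 and 34.4, each below the microglia-like value of its own library and inside the range over libraries. Other MHC class II-high cells gave 15.05 in AB5863, 9.52 in AB5864, 19.2 in AB5865 and 15.35 in AB5876. Every one of these lay below every microglia-like value. Monocyte-like cells gave 4.04, 10.15, 10.24 and 14.5 in those same 4 libraries. Cd209a dendritic-like cells held at least 5 cells in all libraries but AB5863 and gave 10.47, 8.63, 11.6 and 6.40 there. These last classes overlapped with each other and with the lower end of the MHC class II-high cells. Neutrophil-like cells gave 3.80 in AB5864, 0 in AB5867 and 3.89 in AB5876.

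**Figure D1:**
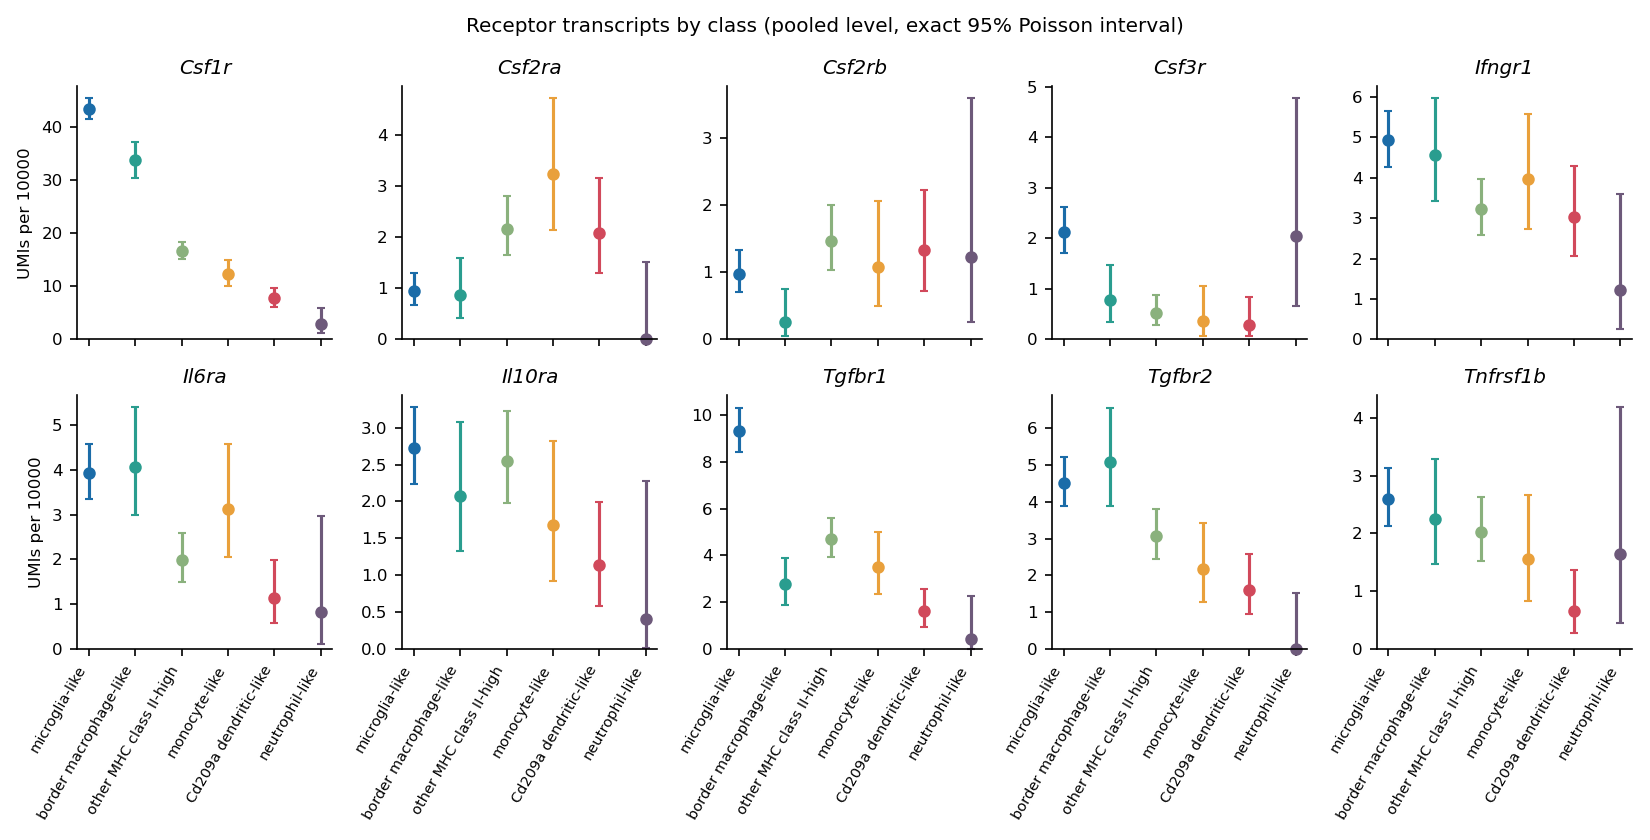
Pooled level of each receptor gene (UMIs per 10000, vertical axis, 1 panel per gene with its own scale) in the 6 cell classes, where bars are exact 95% Poisson intervals for counting alone. Csf1r steps down from 43.4 in microglia-like to 2.87 in neutrophil-like cells, Tgfbr1 is 9.34 in microglia-like cells and at most 4.71 in the other classes, and Csf2ra is highest in monocyte-like cells at 3.25; levels are not comparable between panels.

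The 5 comparisons with microglia-like cells used edgeR's quasi-likelihood test on sums per library and class of at least 5 cells, with library as a term and Benjamini-Hochberg adjustment over the 3015 genes tested, so that all 10 receptor genes were in the fit. The comparisons share their microglia-like sums. Each p-value is judged against how class differences vary from library to library, once the library term has taken out each library's own level. That spread, which may be technical, was estimated over the sums of all classes together. The p-values make no allowance for classes having been gated on the same cells. Csf1r fell in 4 of the 5. Of all genes tested, 0.332% fell in border macrophage-like, 3.81% in other MHC class II-high, 10.1% in Cd209a dendritic-like, 5.01% in monocyte-like and 0.697% in neutrophil-like cells. The log2 fold change was -1.79 (SE 0.29, adjusted p = 2.78e-07) in other MHC class II-high cells, -2.17 (SE 0.32, adjusted p = 4.87e-09) in monocyte-like cells, -2.80 (SE 0.32, adjusted p = 2.47e-15) in Cd209a dendritic-like cells and -2.52 (SE 0.53, adjusted p = 1.06e-04) in neutrophil-like cells. It was lower in every library that held both classes, 4 of 4, 4 of 4, 4 of 4 and 3 of 3. In levels, microglia-like cells had 2.61-fold (95% counting interval 2.35 to 2.90), 3.54-fold (2.90 to 4.36), 5.58-fold (4.47 to 7.05) and 15.1-fold (7.33 to 37.7) more. The neutrophil difference in level, -3.92 on the log2 scale, is larger than the fitted -2.52, because the fit's scaling factors were 0.349 to 0.624 in neutrophil sums and 0.902 to 1.475 in all others; with total UMIs as the only scaling it was -3.80. It missed the threshold when each sum had to hold at least 10 cells (adjusted p = 0.122). For border macrophage-like cells the log2 fold change was -0.34 (SE 0.34, adjusted p = 0.972), with a level ratio of 1.29 (counting interval 1.15 to 1.44) and a lower level in 2 of 2 libraries.

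Detection in single cells followed the same order. At least 1 Csf1r UMI was found in 91.8% of microglia-like, 87.9% of border macrophage-like, 76.6% of other MHC class II-high, 72.1% of monocyte-like, 58.0% of Cd209a dendritic-like and 23.3% of neutrophil-like cells. After every cell was thinned to 500 UMIs these shares were 83.1%, 74.8%, 53.2%, 42.6%, 28.0% and 10%. Median depths ran from 668.5 UMIs in neutrophil-like to 1569 in Cd209a dendritic-like cells, so the class with the deepest cells had the second-lowest share. The neutrophil-like share after thinning was 3 of 30 cells (exact binomial interval 2.11% to 26.5%). Neutrophils are known for little CSF1R, but whether their Csf1r UMIs are background was not tested, and 109 neutrophil-like wells below the UMI minimum had a higher level, 7.70 per 10000 from 22 UMIs.

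**Figure D2:**
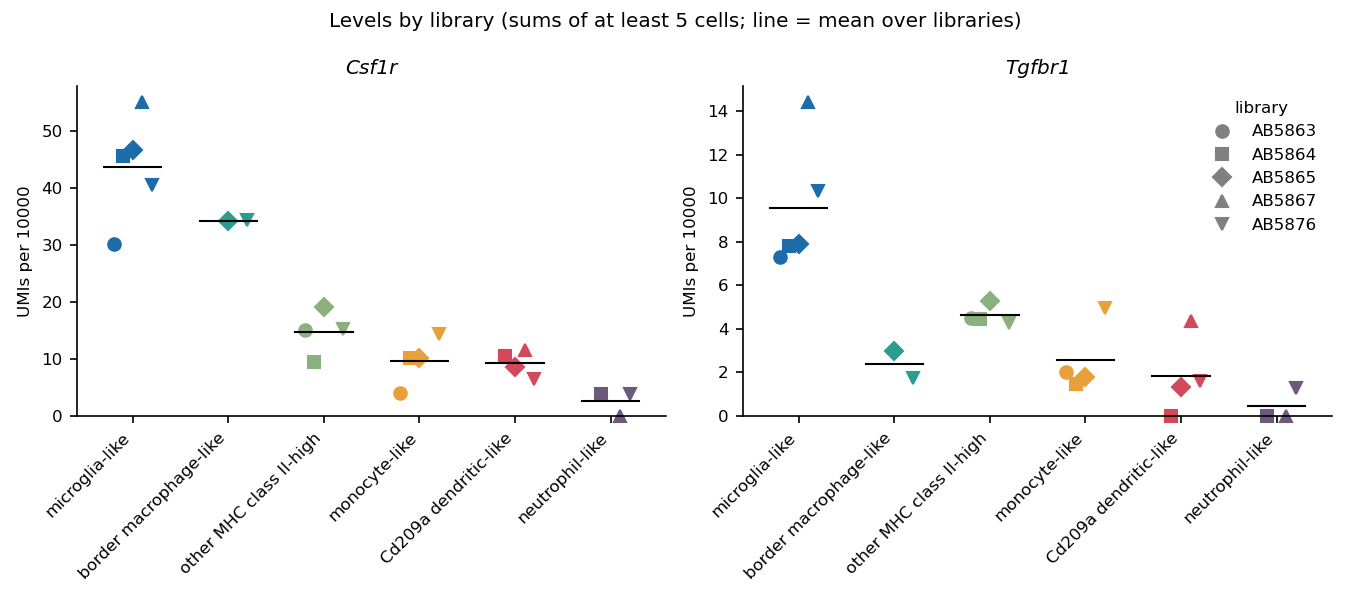
Level of Csf1r and Tgfbr1 (UMIs per 10000, vertical axis) by class, 1 point for each library with at least 5 cells of the class and a line at the mean over libraries. Every library's microglia-like Csf1r value, 30.2 to 55.2, lies above every value of the MHC class II-high, Cd209a, monocyte and neutrophil classes, and for Tgfbr1 the microglia-like values of 7.29 to 14.5 lie above all others.

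The GM-CSF receptor alpha chain gene Csf2ra was at its lowest in the macrophage classes where Csf1r was highest, neutrophil-like cells aside, although no comparison called it. Its pooled level was 0.956 per 10000 in microglia-like, 0.863 in border macrophage-like, 2.17 in other MHC class II-high, 2.09 in Cd209a dendritic-like and 3.25 in monocyte-like cells, from 39, 10, 58, 22 and 27 UMIs, and 0 in neutrophil-like cells. By library, microglia-like cells gave 0.663, 0.979, 0.827, 1.11 and 1.09 in AB5863 to AB5876. Monocyte-like cells gave 10.1 in AB5863, 1.45 in AB5864, 2.67 in AB5865 and 3.16 in AB5876, and other MHC class II-high cells 4.51, 1.90, 2.41 and 1.88. Both classes lay above every microglia-like library. In AB5863 and AB5864 their sums were small, at 4948 and 6894 UMIs of all genes in monocyte-like cells. Those of other MHC class II-high cells were 6646 and 15757. The values of these 2 libraries therefore rest on few Csf2ra molecules. The log2 fold changes were 1.60 (SE 0.66, adjusted p = 0.134) in monocyte-like, 0.93 (SE 0.61, adjusted p = 0.445) in other MHC class II-high and 0.63 (SE 0.69, adjusted p = 0.589) in Cd209a dendritic-like cells by edgeR with Benjamini-Hochberg adjustment. Of 17 alternatives for the monocyte-like value, 1 passed the threshold (the fit of the 2 classes alone, adjusted p = 0.0372). The beta chain gene Csf2rb, shared by the GM-CSF, IL-3 and IL-5 receptors, ran from 0.259 in border macrophage-like (3 UMIs) to 1.46 in other MHC class II-high cells (39 UMIs) and was called in no comparison. Its counts may share reads with its near-copy Csf2rb2, with which it has 3.53% of the 50-base words in the last 1000 bases in common, and a microRNA gene, Mir7676-2, lies on an exon of the same strand with 96 UMIs beside the 117 of Csf2rb. How reads were split among these genes is not known, so the Csf2rb levels are uncertain. Both chains were read in the same cell in 8 of 154 other MHC class II-high cells (5.20%) and in 2 of 319 microglia-like cells.

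Csf3r, the G-CSF receptor gene, was at its highest in microglia-like and neutrophil-like cells. Its level was 2.13 per 10000 in microglia-like cells (87 UMIs), 2.05 in neutrophil-like cells (5 UMIs), 0.777 in border macrophage-like, 0.524 in other MHC class II-high, 0.361 in monocyte-like and 0.285 in Cd209a dendritic-like cells. In microglia-like cells every library held it, at 1.99, 1.63, 2.34, 1.11 and 2.23. Other MHC class II-high cells had none in AB5863 and AB5864, 0.625 in AB5865 and 0.527 in AB5876, all below the microglia-like range. Their sums held 6646 UMIs of all genes in AB5863 and 15757 in AB5864. That is too few for a count of 0 to place these cells below that range. Csf3r fell in these cells (log2 fold change -2.49, SE 0.76, adjusted p = 0.0280) and in Cd209a dendritic-like cells (-3.06, SE 0.96, adjusted p = 0.0180), where it rests on 3 UMIs and the level ratio was 7.49 with a counting interval of 2.48 to 37.0. The Cd209a dendritic-like levels were 0, 0.270, 1.45 and 0.200 from AB5864 on, lower than the microglia-like level in 3 of 4 libraries and higher in AB5867, so these ranges overlapped. Each of the 2 calls was lost without AB5865 (adjusted p = 0.380 and 0.326) or AB5876 (0.390 and 0.323), and without a library term (0.101 and 0.0546). The MHC class II-high call passed in 9 of 16 alternatives. It was also lost with DESeq2, no filter on low counts, total UMIs as the only scaling (0.0774) or scaling factors from all genes. The Cd209a call passed in 10 of 16 and was also lost with no filter, a stricter gate or the 2 classes alone. Between microglia-like and neutrophil-like cells the level ratio was 1.04 with an interval of 0.429 to 3.29, which includes a difference of up to 3.29-fold, and the neutrophil fit gave 1.43 (SE 1.08, adjusted p = 0.587).

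Tgfbr1, the signalling chain of the TGF-beta receptor, was higher in the microglia-like cells of every library than in any other class of any library, where at least 5 cells were summed. Its pooled level was 9.34 per 10000 in microglia-like, 4.71 in other MHC class II-high, 3.49 in monocyte-like, 2.76 in border macrophage-like, 1.61 in Cd209a dendritic-like and 0.410 in neutrophil-like cells, from 381, 126, 29, 32, 17 and 1 UMIs. Microglia-like cells gave 7.29, 7.83, 7.92, 14.5 and 10.3 over AB5863 to AB5876 (mean 9.57 ± 2.97, SD, n = 5 libraries). Border macrophage-like cells gave 2.99 in AB5865 and 1.76 in AB5876. Other MHC class II-high cells gave 4.51, 4.44, 5.27 and 4.29 in AB5863, AB5864, AB5865 and AB5876. In none of the 5 comparisons did the libraries' ranges overlap, and in the order of pooled levels only microglia-like and other MHC class II-high cells, the top neighbours, had separate counting intervals. Cd209a dendritic-like cells gave 0, 1.35, 4.35 and 1.60 in the libraries from AB5864 on. Monocyte-like cells gave 2.02, 1.45, 1.78 and 4.97 in AB5863, AB5864, AB5865 and AB5876.

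Tgfbr1 fell in 3 comparisons: log2 fold change -1.87 (SE 0.52, adjusted p = 0.0378) in border macrophage-like, -1.69 (SE 0.46, adjusted p = 0.00840) in monocyte-like and -2.93 (SE 0.48, adjusted p = 1.43e-07) in Cd209a dendritic-like cells. The level ratios, microglia-like over the class, were 3.38 (counting interval 2.35 to 5.01), 2.68 (1.84 to 4.06) and 5.79 (3.57 to 10.1). In other MHC class II-high cells the value was -1.17 (SE 0.39, adjusted p = 0.0561), just over the threshold, with a ratio of 1.98 (1.62 to 2.44); it passed in 8 of 17 alternatives. The Cd209a dendritic-like call held in 17 of 17 alternatives, with adjusted p = 0.00609 without AB5865 and 0.0101 without AB5876. The monocyte-like call held in 13 of 17 and the border macrophage-like call in 12 of 17. The monocyte-like call was lost without AB5865 (adjusted p = 0.257) or AB5876 (0.141). The border macrophage-like call, which rests on those 2 libraries alone, was lost without either (0.998 and 1.00, with log2 fold changes of -2.52 and -1.34) and without a library term (0.107). In neutrophil-like cells, with 1 UMI, the ratio was 22.8 with a counting interval of 4.07 to 903. After thinning to 500 UMIs a cell, a Tgfbr1 UMI was found in 32.9% of microglia-like, 16.2% of other MHC class II-high, 12% of Cd209a dendritic-like, 8.41% of border macrophage-like and 8.20% of monocyte-like cells.

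Tgfbr2, the ligand-binding chain, differed from Tgfbr1 in the place of border macrophage-like cells. The other classes kept the same order of pooled levels for both genes. Against microglia-like cells, Tgfbr2 was lower in 4 of 4 libraries in both other MHC class II-high and monocyte-like cells. It was lower in 3 of 4 in Cd209a dendritic-like and 3 of 3 in neutrophil-like cells. In border macrophage-like cells it was lower in 1 library and higher in 1. Its level was 5.09 per 10000 in border macrophage-like, 4.51 in microglia-like, 3.07 in other MHC class II-high, 2.16 in monocyte-like and 1.61 in Cd209a dendritic-like cells, from 59, 184, 82, 18 and 17 UMIs. By library it was 2.65, 2.29, 5.93, 2.97 and 4.28 in microglia-like cells and 4.49 and 5.27 in the border macrophage-like cells of AB5865 and AB5876, inside that range. Tgfbr2 was called in no comparison; the log2 fold change was 0.11 (SE 0.58, adjusted p = 0.998) in border macrophage-like and -1.56 (SE 0.59, adjusted p = 0.0598) in Cd209a dendritic-like cells. Neutrophil-like cells had 0 Tgfbr2 UMIs, with a counting interval that reached 1.51 per 10000. With a floor of 3 UMIs set for the class, the level was 3.67-fold lower than in microglia-like cells. The 109 neutrophil-like wells below the UMI minimum gave 2.80 per 10000 (1.21 to 5.51) from 8 UMIs. These UMIs lay in 4 wells, with 4 of them in 1 well, and the median over libraries was 0. The ratio of Tgfbr1 to Tgfbr2 UMIs, which cancels depth and scaling, was 2.75, 3.43, 1.34, 4.88 and 2.41 in the microglia-like cells of AB5863 to AB5876, with 2.07 pooled (counting interval 1.73 to 2.48). In border macrophage-like cells it was 0.667 in AB5865 and 0.333 in AB5876, with 0.542 pooled (0.341 to 0.848). All 5 microglia-like values lay above 1 and both border values below it. In AB5865 the border interval, 0.331 to 1.31, included 1 and overlapped the microglia-like one, 1.00 to 1.79. In AB5876 the 2 intervals were apart, at 0.145 to 0.701 and 1.83 to 3.20. The other MHC class II-high cells also lay above 1, at 3, 7, 2.11 and 1.10 in AB5863, AB5864, AB5865 and AB5876. Pooled, they were at 1.54 (1.15 to 2.06), monocyte-like cells at 1.61 (0.865 to 3.08) and Cd209a dendritic-like cells at 1 (0.480 to 2.08). This ratio was picked out after the values were seen, so no test was run on it, and it is not a ratio of molecules per cell, since capture can differ between the genes.

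**Figure D3:**
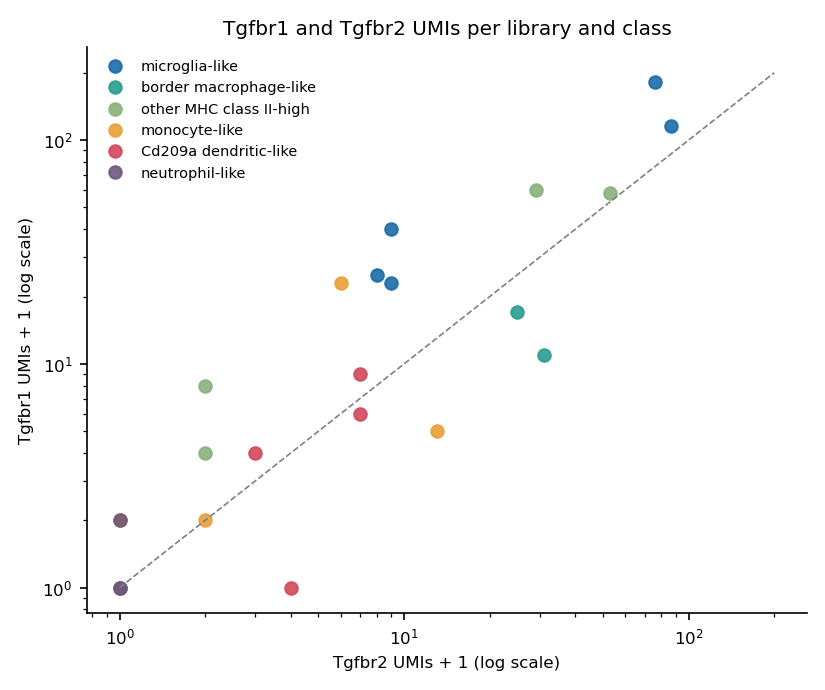
Tgfbr1 UMIs plus 1 (vertical axis, log scale) against Tgfbr2 UMIs plus 1 (horizontal axis, log scale), 1 point for each library and class of at least 5 cells, with a dashed line where both are equal. The 5 microglia-like points lie above the line and both border macrophage-like points below it. Points of other MHC class II-high cells also lie above the line.

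Both TGF-beta receptor chains were read in the same cell in 64 of 319 microglia-like cells (20.1%), 26 of 154 other MHC class II-high cells (16.9%) and 6 of 107 border macrophage-like cells (5.61%). Cells with both were deep, with a median of 1408 UMIs against 1026 for all microglia-like cells and 1590 against 878 for border macrophage-like cells, so these shares depend on depth. For Tgfbr2 alone, the share after thinning was 22.4% in border macrophage-like and 15.7% in microglia-like cells.

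Ifngr1, the ligand-binding chain of the interferon-gamma receptor, had overlapping counting intervals between classes next to each other in pooled level. Its level was 4.93 per 10000 in microglia-like, 4.57 in border macrophage-like, 3.97 in monocyte-like, 3.22 in other MHC class II-high, 3.03 in Cd209a dendritic-like and 1.23 in neutrophil-like cells, from 201, 53, 33, 86, 32 and 3 UMIs. The microglia-like libraries alone ran from 1.48 in AB5867 to 8.28 in AB5863, a range that held the pooled levels of all but the neutrophil-like cells. It was called in no comparison, with log2 fold changes from -1.01 (SE 0.42, adjusted p = 0.172) in other MHC class II-high to -0.03 (SE 0.50, adjusted p = 0.998) in border macrophage-like cells. In other MHC class II-high cells Ifngr1 was lower than in microglia-like cells in 4 of 4 libraries. The level ratio there was 1.53 (counting interval 1.18 to 1.995), and 2 of 17 alternatives passed the threshold. Il10ra, the IL-10 binding chain, had 2.72 in microglia-like, 2.54 in other MHC class II-high, 2.07 in border macrophage-like, 1.68 in monocyte-like and 1.14 in Cd209a dendritic-like cells, and was also called in none; its largest fitted difference was -1.72 (SE 0.67, adjusted p = 0.0681) in Cd209a dendritic-like cells. The MHC class II-high value leaned on AB5864, where the level was 17.1 and 18 of 27 UMIs came from 1 cell, and was 1.63 without that library.

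Il6ra and Tnfrsf1b passed the test in Cd209a dendritic-like cells alone among the 5 comparisons, and whether their change differed from that in the other classes was not tested. Il6ra, the IL-6 binding chain, was at 4.06 per 10000 in border macrophage-like, 3.92 in microglia-like, 3.13 in monocyte-like, 1.98 in other MHC class II-high and 1.14 in Cd209a dendritic-like cells. In both libraries with at least 5 border macrophage-like cells the level there was below the microglia-like one, 2.99 against 4.20 in AB5865 and 3.86 against 4.40 in AB5876; the pooled 4.06 includes 8 of 47 UMIs from 3 cells of AB5867. In microglia-like cells it was 1.33, 1.96, 4.20, 4.45 and 4.40 from AB5863 to AB5876, and in Cd209a dendritic-like cells 0, 1.08, 0 and 1.60 in AB5864, AB5865, AB5867 and AB5876. The ranges overlapped, and Il6ra fell by 2.16 on the log2 scale (SE 0.64, adjusted p = 0.0106). Tnfrsf1b was steady among microglia-like libraries, at 2.32, 2.61, 2.21, 2.59 and 2.97, and in Cd209a dendritic-like cells was 0, 0.540, 0 and 1.00 (7 UMIs in all, 0.664 pooled). Here the ranges did not overlap, and Tnfrsf1b fell by 2.55 (SE 0.77, adjusted p = 0.0130). The values of 0 came from sums of 7641 UMIs in AB5864 and 6903 in AB5867, too few to place those libraries below the microglia-like range. Both calls were lost without AB5865 (adjusted p = 0.226 for Il6ra and 0.181 for Tnfrsf1b) or AB5876 (0.157 and 0.150). Il6ra passed in 11 and Tnfrsf1b in 12 of 17 alternatives. Tnfrsf1b in the other classes ran from 1.56 in monocyte-like to 2.24 in border macrophage-like cells, and neutrophil-like cells gave 1.64 from 4 UMIs.

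Counted over the 10 genes, 1 fell in border macrophage-like cells (Tgfbr1), 2 in other MHC class II-high cells (Csf1r and Csf3r), 5 in Cd209a dendritic-like cells (Csf1r, Csf3r, Tgfbr1, Il6ra and Tnfrsf1b), 2 in monocyte-like cells (Csf1r and Tgfbr1) and 1 in neutrophil-like cells (Csf1r). None rose. Of all genes tested, 0.332%, 3.81%, 10.1%, 5.01% and 0.697% fell in these comparisons in the same order, and 0.630%, 0.730%, 2.89%, 1.79% and 5.34% rose. The median log2 fold change of the 10 genes was -0.35, -0.91, -1.94, -1.06 and -2.12, beside -0.10, -0.42, -0.63, -0.37 and -0.84 over all genes. The split of all calls moved with the scaling. For Cd209a dendritic-like cells it was 87 higher and 306 lower here and 184 and 184 with total UMIs as the only scaling; for other MHC class II-high cells 22 and 115 became 62 and 70; for monocyte-like cells 54 and 151 became 68 and 94; and for neutrophil-like cells 161 and 21 became 56 and 144. In neutrophil-like cells 4 of the 10 genes fell with that scaling, Il6ra, Tgfbr1 and Tgfbr2 beside Csf1r.

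**Figure D4:**
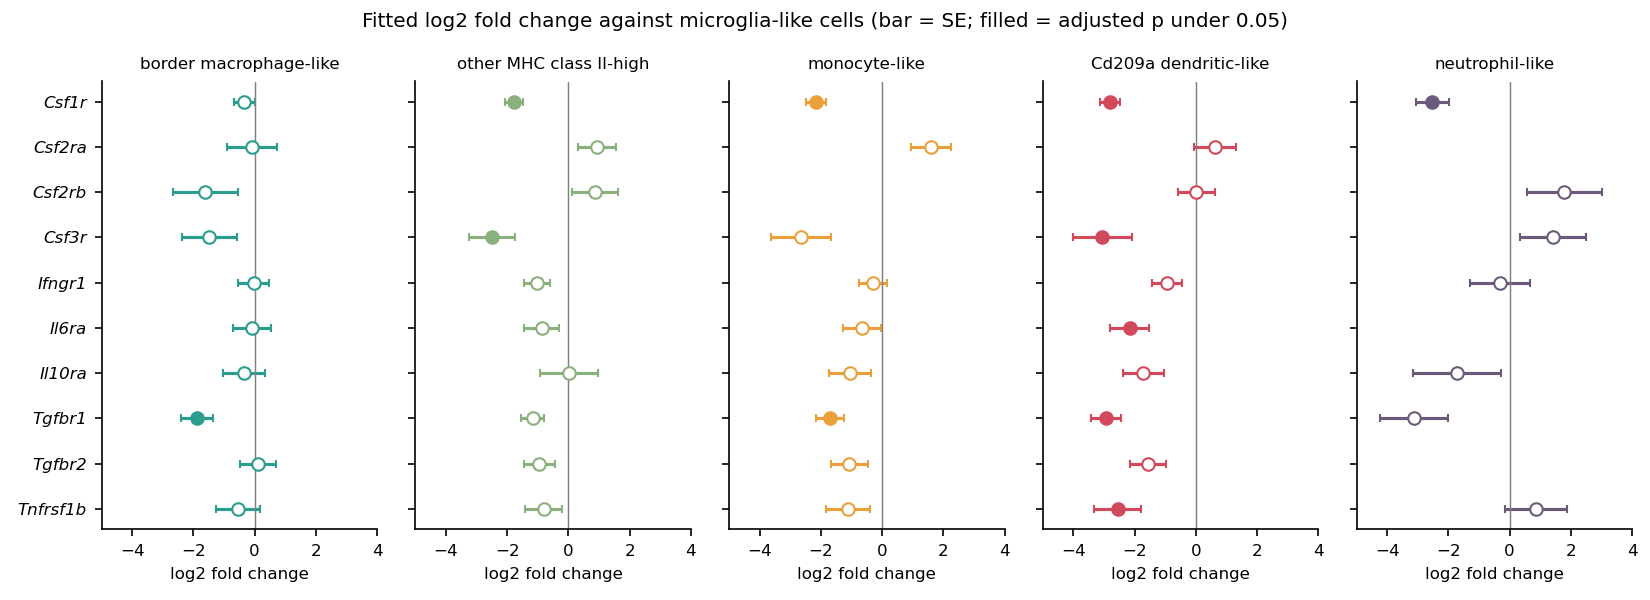
Fitted log2 fold change against microglia-like cells (horizontal axis, bars are the standard error) for each receptor gene in 5 panels, 1 per class, with filled points where the adjusted p from edgeR was under 0.05; monocyte-like Csf2rb and neutrophil-like Csf2ra, Il6ra and Tgfbr2, whose fits gave a standard error above 3 or a fold of about 0, are not drawn. Filled points lie left of 0 in every panel, from 1 in the border macrophage-like and neutrophil-like panels to 5 in the Cd209a dendritic-like panel.

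Within classes, receptor levels also varied with MHC class II, which presents peptides to T cells and is induced by interferon-gamma. The 58 microglia-like cells above the MHC class II gate had a Csf1r level of 34.8 per 10000 (counting interval 30.8 to 39.2) against 45.4 (43.2 to 47.8) in the other 261, and were lower in 5 of 5 libraries. Csf3r was 1.39 against 2.31, also lower in 5 of 5, and Il10ra 1.01 against 3.13, lower in 4 of 5. Il6ra was also lower in 4 of 5, and Csf2ra, Tgfbr1, Tgfbr2 and Tnfrsf1b in 3 of 5. Csf2rb went the other way, at 1.27 (10 UMIs) against 0.91 (30 UMIs), higher in 4 libraries and lower in 0. Ifngr1 was higher in 3 of 5. In the other classes only AB5865 and AB5876 had at least 5 cells on both sides of a split, so values are given for those. Border macrophage-like cells with high MHC class II had a Csf1r level of 37.4 against 29.7 in AB5865 and 37.7 against 30.7 in AB5876, the opposite direction to microglia-like cells, and an Il6ra level of 4.16 against 1.35 and 4.67 against 2.96. Monocyte-like cells with high MHC class II had a Tgfbr1 level of 2.24 (4 UMIs) against 0 in AB5865 and 6.68 (17 UMIs) against 2.66 in AB5876, and an Il6ra level of 6.15 against 2.19 and 2.36 against 0.532. Csf2ra did not keep 1 direction there, at 2.79 against 2.19 in AB5865 and 0.786 against 6.38 in AB5876. All 9 Csf2rb UMIs of the monocyte-like class were in its MHC class II-high cells, 7 of them in AB5876. The 22 microglia-like cells with high Lpl, Spp1 and Ccl3, genes of activated microglia, had a Csf1r level of 27.8 against 47.9 in AB5865 and 29.2 against 41.6 in AB5876. Their Ifngr1 level was 0 against 5.26 and 3.56 against 4.90, and their Tgfbr2 level 13.3 against 5.48 and 4.99 against 4.22. None of these splits was tested.

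Partners and ligands of the receptors were read sparsely. Of 12 ligand genes only Tgfb1, with 155 UMIs, had enough molecules to be tested and it was called in no comparison; Csf1 had 46 UMIs, Tnf 23, Il6 8 and Il10 1, and Il34, Csf2, Csf3 and Ifng had 0; ligand transcripts were scarce in these cells at this depth. Of 7 partner chains 5 were tested, and Il6st (gp130), which carries the IL-6 signal, fell in 3 comparisons: by 2.98 (SE 0.80, adjusted p = 0.00813) in other MHC class II-high, 2.52 (SE 0.89, adjusted p = 0.0397) in Cd209a dendritic-like and 2.86 (SE 0.97, adjusted p = 0.0485) in monocyte-like cells. Its level was 2.08 per 10000 in microglia-like and 1.47 in border macrophage-like cells, and 0.337, 0.474 and 0.361 in those 3. The last 2 calls were lost with total UMIs as the scaling (adjusted p = 0.0954 and 0.0858), and all 3 without AB5865 (0.382, 0.202 and 0.265) or AB5876 (0.298, 0.321 and 0.281). The Cd209a dendritic-like call passed in only 3 of 16 alternatives and the monocyte-like call in 1 of 16. Both were also lost with DESeq2 (adjusted p = 0.101 and 0.0666). The other MHC class II-high call passed in most of its 16 alternatives, DESeq2 among them (adjusted p = 0.0293). Ifngr2, Il10rb and Tnfrsf1a, the second chains for interferon-gamma and IL-10 and the other TNF receptor, were called in none. Ifngr1 and Ifngr2 were read together in 24 of 319 microglia-like cells (7.52%) and 15 of 154 other MHC class II-high cells (9.74%).

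Of 26 other cytokine receptor genes 11 were tested. Tnfrsf21, the death receptor DR6, fell in other MHC class II-high cells (log2 fold change -3.61, SE 0.89, adjusted p = 0.00299) and in Cd209a dendritic-like cells (-3.17, SE 0.97, adjusted p = 0.0145), from a level of 2.11 per 10000 in microglia-like cells to 0.187 and 0.379; without AB5865 neither passed (adjusted p = 0.315 and 0.279). In monocyte-like cells Bmpr2, a BMP receptor, fell (-2.85, SE 0.96, adjusted p = 0.0468) and Il2rg, the common gamma chain, rose (2.78, SE 0.95, adjusted p = 0.0497). Ifnar1, a chain of the type I interferon receptor, had 0 UMIs in the 61 monocyte-like cells. With a floor of 3 UMIs set for that class, its level was 2.72-fold lower than the 0.980 of microglia-like cells. Among the alternatives that tested them, Bmpr2 passed in 2 of 16, Il2rg in 5 of 12 and Ifnar1 in 6 of 12. Without AB5865 or AB5876, Bmpr2 missed the threshold (adjusted p = 0.331 and 0.125) and the other two were too low to be tested.

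Of 15 feedback and TGF-beta activation genes 7 were tested; Ski, a repressor of SMAD signalling, fell in Cd209a dendritic-like cells (-2.58, SE 0.83, adjusted p = 0.0203), a call lost with total UMIs as the scaling (0.0567) and without AB5865 (0.232) or AB5876 (0.264). Nrros, which anchors latent TGF-beta on microglia and macrophages, had 5.70 per 10000 in border macrophage-like and 2.03 in microglia-like cells, a difference that was not called (1.26, adjusted p = 0.657).

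The genes whose levels moved most like each receptor's were sought over the 22 library and class sums among 1662 genes with at least 100 UMIs that mark no class, as a description only; sums of 1 library and of 1 class are not independent. For Csf1r they were Kctd12 (Pearson r = 0.900 on log2 levels), Rgs10 (0.890) and Ctss (0.863), and for Tgfbr1 Marcks (0.865), Ctss (0.857) and Itgb5 (0.838). Ctss was thus shared by both. For Tgfbr2 they were Rgs10 (0.783), Csf1r (0.778) and Grn (0.768), and for Tnfrsf1b Son (0.916), Syk (0.892) and Apom (0.850). Il10ra was nearest to Fcgr4 (0.802), Canx (0.797) and Tlr2 (0.785), Il6ra to Xiap (0.856), Pik3r1 (0.826) and Trim8 (0.816), and Ifngr1 to Serbp1 (0.680), its own partner chain Ifngr2 (0.669) and Nol7 (0.668). Csf3r was nearest to Derl1, Cd63-ps and Hvcn1.

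In the mouse genome (GRCm38, GENCODE vM21) the 10 genes lie on 7 chromosomes. Csf1r is on chromosome 18, Csf2ra on 19, Csf2rb on 15, Ifngr1 on 10 and Il6ra on 3. Csf3r (chr4:126024550-126044440), Tgfbr1 (chr4:47353222-47414931) and Tnfrsf1b (chr4:145213463-145246870) share chromosome 4, and Il10ra (chr9:45253837-45269149) and Tgfbr2 (chr9:116084293-116175360) chromosome 9. Antisense genes overlap an exon of Csf1r (Hmgxb3, 18 UMIs) and of Il6ra (Gm42809, 4 UMIs). Whether strand was used in counting is not stated, so reads of these overlapping genes cannot be told apart; the kept cells held 3118 UMIs of Csf1r and 334 of Il6ra.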

How the data were processed

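Single CD45highCD11bhigh brain cells of 5 MARS-seq libraries, all labelled anti-PD-L1, were analysed. The values are raw UMI counts, deposited as 1 table of genes by wells for each library. Per the submitters' notes, reads were handled with bcl2fastq 2.15.0.4 and the build was mm10; no aligner was named (not given in the sources used here). Doublets were gated out by the authors during sorting, and no doublet caller was run.

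From these counts, wells with 1 cell and at least 500 non-ERCC UMIs were kept. Cells were gated in order on summed markers, at least 500 per 10000 UMIs for neutrophils, 100 for microglia, 30 for border macrophages, 20 for Cd209a cells, 30 for monocytes and 200 for MHC class II, with at least 2 UMIs. The minima were set after the marker sums, but before the receptor levels, had been seen. Sums per library and class of at least 5 cells were tested in R 4.3.3 with edgeR 4.0.16 (quasi-likelihood, class and library terms, Benjamini-Hochberg adjustment, threshold 0.05); DESeq2 1.42.0 was an alternative. Scripts were tested on simulated data. Levels, intervals and the rest were computed in Python 3.11.15 with scipy 1.17.1.

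The fit was changed after receptor calls had been seen. The first used filterByExpr, which left out Csf3r and Il10ra (1137 genes). The second kept the 3015 genes of at least 50 UMIs with TMM factors from all of them; these followed the size of the sum, and simulated data gave biased folds. The fit reported takes TMM factors from the 213 genes of at least 500 UMIs. Both earlier fits are among the alternatives, as are other scalings, filters, UMI minima, gates, no library term and leaving out each library.

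The receptors, marker lists and pathway lists were chosen with earlier results of these data known. Named genes are the 10 receptors, pathway genes past the threshold or among the 4 with most UMIs, and the 3 genes of nearest pattern. Results of the list of signalling genes are not reported here. In the low counts of neutrophil-like cells depth limits precision to the intervals given. No well identifier was shared between libraries and no 2 cells were identical.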

Additional observations from a re-analysis of the deposited data

Results flagged for a closer look

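A library stood far from the others of its class in 3 of 40 groups of 4 or 5 libraries tested with Dixon's criterion, where chance gives about 1 in 20. Il10ra in other MHC class II-high cells was 17.14 per 10000 UMIs in AB5864 and 0 to 1.874 in the other 3 libraries. The class held 15 cells in AB5864, and 18 of its 27 Il10ra UMIs came from 1 cell. Csf3r in monocyte-like cells was 1.335 in AB5865, from 3 UMIs in 19 cells, and 0 in the others. Tgfbr1 in monocyte-like cells was 4.969 in AB5876, from 22 UMIs in 24 cells, and 1.451 to 2.021 in the others.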

How the results depend on the processing

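The counts of receptor genes past the threshold moved with the processing as follows; all were lower than in microglia-like cells except Csf2ra, higher in monocyte-like cells with only the 2 classes in the fit. No call of the reported fit changed direction. Border macrophage-like cells (1 as reported) gave 0 with no filter on low counts, no library term or TMM factors from all genes, and 0 to 1 when 1 library was left out; without AB5865 or AB5876, no gene of any kind was called by edgeR, with 57 and 47 at an unadjusted p under 0.05. Other MHC class II-high cells (2) gave 1 with DESeq2, no filter, no library term, total UMIs as the only scaling, TMM factors from all genes or filterByExpr, 3 with 300 UMIs a cell, a stricter gate or only the 2 classes, 5 with at least 1000 UMIs a cell, 4 with 10 cells a sum, and 1 to 4 without 1 library. Cd209a dendritic-like cells (5) gave 2 with no filter, a stricter gate or only the 2 classes in the fit, 4 with DESeq2 or no library term, 6 with 10 cells a sum, 7 with 1000 UMIs, and 2 to 7 without 1 library. Monocyte-like cells (2) gave 1 with no filter or with at least 300 UMIs a cell, 3 with 1000 UMIs or only the 2 classes, and 1 to 2 without 1 library. Neutrophil-like cells (1) gave 4 with DESeq2, total scaling, TMM factors from all genes or filterByExpr, 2 with 300 UMIs or a stricter gate, 0 with 10 cells a sum, and 1 without any 1 library; they could not be fitted at 1000 UMIs. Without the library term, the replicate block of this design, the counts were 0, 1, 4, 2 and 1 in the order above. The cause of these changes was not tested. Total scaling, TMM factors from all genes and filterByExpr were added after seeing the data. Over the called receptor genes, 150 of 184 alternative folds kept their side of the threshold, and 509 of 540 alternative levels moved by less than 1 SD. Few cells of the border, Cd209a and neutrophil-like classes, and median depths of 651, 680 and 759 UMIs a kept cell in 3 libraries, limit what could be detected.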

Other observations

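Wells with 100 to 499 UMIs, 922 in all and outside every comparison, had a Csf1r level of 34.7 and a Tgfbr1 level of 10.5 per 10000 UMIs. Among them, 109 passed the neutrophil gate, with a Csf3r level of 3.85 (11 UMIs) and a Csf1r level of 7.70 (22 UMIs). These 109 held 8 Tgfbr2 UMIs in 4 wells, 4 of them in 1 well, where the 30 deeper neutrophil-like cells held 0.

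The 104 kept cells that passed no gate had a Csf1r level of 25.2, between border macrophage-like and other MHC class II-high cells, with Ifngr1 at 4.84, Tgfbr1 at 4.37 and Tnfrsf1b at 3.36. In the monocyte-like class the neutrophil granule genes Mpo and Elane were read with 23 and 17 UMIs, of which 22 and 15 were in 1 cell each.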
